A study of Mus musculus with 6 samples.

Results

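The genes described here are the receptors, co-receptors and transcription factors through which cells receive Hedgehog signals. They were chosen by name: the 9 rows of the deposited expression table whose gene name was Gli1, Gli2, Gli3, Ptch1, Hhip, Smo, Boc, Cdon or Gas1, of 54532 gene rows in all. Each symbol matched 1 row. Expression was measured by bulk RNA sequencing in neurospheres, the free-floating balls that neural progenitors form in culture, made from hippocampi of C57BL/6 mice on the day of birth (P0). They were harvested on day 7 after growth in medium with FGF-2 and EGF at 20 ng/ml each, and the cells of a mouse were spread over 2 wells. Mice of both groups carry hGFAPCre, a transgene that makes Cre recombinase under the GFAP promoter of human origin, so recombination is expected only in cells in which that promoter is or has been active. The 3 CTRL libraries have the genotype hGFAPCre+, Fgf13+/y, with an intact Fgf13 gene on the X chromosome. The 3 FGF13cko libraries have the genotype hGFAPCre+, Fgf13 flox/y, and the design text calls the controls littermates. The comparison is thus of conditional deletion of Fgf13, an intracellular FGF homologous factor, with no deletion.

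Hedgehog ligands act by relieving a brake. Without ligand, the receptor Ptch1 holds the membrane protein Smo inactive, and Gli proteins, mainly Gli3, are cut into repressors at the primary cilium. When a ligand binds Ptch1, helped by the co-receptors Boc, Cdon and Gas1, Smo enters the cilium and full-length Gli proteins, mainly Gli2, activate target genes. Gli1, Ptch1 and Hhip are themselves such targets, so their RNA is commonly used as a readout of pathway activity. In the hippocampus, Sonic hedgehog is known for maintaining the neural stem cells of the dentate gyrus.

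Each library held between 22191718 and 24531400 reads counted to genes. Fgf13 itself (chromosome X) had 480.1, 651 and 276 normalized counts in CTRL 1, 2 and 3, and 200.6, 239 and 332 in FGF13cko 1, 2 and 3. A normalized count is the deposited value, a gene's reads divided by the library's size factor. The library labelled FGF13cko 3 was above the one labelled CTRL 3, so the ranges overlap, and the log2 change of -0.81 (SE 0.33, limma adjusted p = 0.134) was not past the threshold. Without CTRL 3 the log2 change of Fgf13 was -1.15 (limma adjusted p = 0.0108), and without replicate 3 of both groups -1.35 (0.000352). In Fgf13 RNA, replicates 1 and 2 thus followed their labels and replicate 3 did not. That holds for this gene only. With replicate 3 included, values of the groups did not overlap for 39.4% of all tested genes. Among them was Gli2, at 456 in CTRL 3 and 315 in FGF13cko 3. The count table does not say which exons the flox allele deletes. Both replicate 3 libraries stood apart from the others of their groups, with 4.05% and 4.14% of reads from mitochondrially encoded genes against 1.46% to 2.36% elsewhere. The astrocyte list summed highest in replicate 3 of both groups, at 59394 in CTRL 3 against 29152 to 35549 in the other CTRL libraries, and at 60157 against 32513 to 44917 in FGF13cko. Its marker Gfap was at 26687 and 30885 in CTRL 3 and FGF13cko 3 and at 3721 to 14371 elsewhere. Aqp4, S100b, Slc1a2 and Gjb6 were also highest in replicate 3 of both groups. Aldh1l1 and Aldoc were instead lowest in CTRL 3 (4193 and 10275) among the controls, and Aldh1l1 was highest in FGF13cko 2 (10245). Whether this bears on the values of replicate 3 was not tested. Member values without these libraries are given where they change a call. Of the defining markers of neural progenitors, all 9 on the list were detected in every library, among them Sox2 at 5923 to 11791, Nes at 4155 to 33400.1 and Vim at 28349 to 82470 normalized counts. The mural, endothelial, and microglia and macrophage marker lists were low in sum. They summed to 285 to 427, 70.8 to 202 and 110 to 121 normalized counts in CTRL, and to 904 to 2489, 216 to 442 and 271 to 313 in FGF13cko. The ependymal and choroid plexus list, with Tmem212 at or near 0, summed to 563 to 947 and 1426 to 1705. Of the tested genes of these 4 lists, 3 of 6, 1 of 6, 2 of 4 and 2 of 4 rose and none fell. Of the GABAergic lineage list, 5 of 7 rose and 1 fell, and of the oligodendrocyte lineage list 2 of 8 fell. Over all tested genes, 7.55% rose and 7.08% fell. Most of the mural sum in FGF13cko was Rgs5, at 659 to 2267, while the mean of Col1a1 went from 72.5 to 31.1 and did not pass. Their part in the results on Hedgehog genes was not tested.

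The promoters of the 4 members with the smallest unadjusted p-values (under 0.05) in the genotype comparison are printed here, since these are the genes on which the comparison turns. An unadjusted p under 0.05 was reached by 31.9% of all tested genes. Each sequence runs 5′ to 3′ on the gene's strand, from 250 bases before to 50 bases after the start given by RefSeq (GRCm38.p6). Capitals mark GGGCGG or its reverse complement, the GC box letters. The Gli2 window lies at chr1:119053570-119053869 (minus strand), Hhip at chr8:80057959-80058258 (minus strand), Smo at chr6:29735247-29735546 (plus strand) and Cdon at chr9:35451826-35452125 (plus strand).
Gli2: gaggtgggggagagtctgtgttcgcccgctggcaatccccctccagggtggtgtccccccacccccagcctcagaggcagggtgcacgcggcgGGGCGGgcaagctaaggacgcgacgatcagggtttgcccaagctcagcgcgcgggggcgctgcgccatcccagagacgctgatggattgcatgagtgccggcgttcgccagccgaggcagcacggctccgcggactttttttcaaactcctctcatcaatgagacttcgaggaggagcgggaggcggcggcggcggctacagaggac
Hhip: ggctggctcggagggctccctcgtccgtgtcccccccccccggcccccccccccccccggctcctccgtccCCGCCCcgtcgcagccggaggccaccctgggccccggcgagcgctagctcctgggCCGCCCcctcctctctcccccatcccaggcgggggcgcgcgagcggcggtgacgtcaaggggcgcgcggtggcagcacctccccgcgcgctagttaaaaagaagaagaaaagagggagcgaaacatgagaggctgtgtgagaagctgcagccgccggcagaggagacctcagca
Smo: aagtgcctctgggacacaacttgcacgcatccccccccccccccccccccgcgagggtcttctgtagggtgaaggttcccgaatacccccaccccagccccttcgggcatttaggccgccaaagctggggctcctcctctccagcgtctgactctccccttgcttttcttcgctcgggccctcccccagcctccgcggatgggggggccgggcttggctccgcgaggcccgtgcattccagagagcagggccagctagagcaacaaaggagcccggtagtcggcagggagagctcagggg
Cdon: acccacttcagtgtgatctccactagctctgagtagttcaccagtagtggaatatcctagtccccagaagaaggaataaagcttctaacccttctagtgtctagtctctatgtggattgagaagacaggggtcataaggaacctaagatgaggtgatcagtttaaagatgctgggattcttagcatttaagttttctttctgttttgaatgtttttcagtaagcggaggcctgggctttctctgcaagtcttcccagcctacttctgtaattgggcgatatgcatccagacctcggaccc

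The table of promoters matched 7 of the 9 members, and Gli1 and Boc had no entry. The 9-letter Gli consensus GACCACCCA, searched on both strands, was in none of these 7 windows and in 0.253% of all 32851 promoters. Its 7-letter core CCACCCA was also in none of the 7, against 9.30% of all promoters. GGGCGG was in 5 of the 7 (Gas1, Gli2, Gli3, Hhip and Ptch1), against 35.7% of all. The Cdon window was the most AT-rich, with a GC content of 44.7% and 3 CpG dinucleotides, whereas Ptch1 had 76.3% and 47, and the median of all promoters was 52.7%. The RefSeq starts used for Cdon, Ptch1 and Gli3 lie inside the longer genes annotated by GENCODE release M21. Those genes run from 35421128 to 35507652, 63508328 to 63573598 and 15463235 to 15730026. The Ptch1 window is at 63565686 to 63565985 (minus strand) and that of Gli3 at 15463473 to 15463772 (plus strand). No match says only that these letters are not in the window.

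Gli2 was the only member to pass the test, and it fell, in libraries grouped by their labels. Smo and Hhip were lower in all 3 FGF13cko libraries than in any CTRL library, and the mean of Cdon was higher, but none of these 3 passed. The values of Gli1, Gli3, Ptch1, Boc and Gas1 overlapped between the groups and did not pass, although Ptch1 was lower in all 3 same-numbered pairs. Thus 1 of 9 members was past the threshold (limma, adjusted p under 0.05), none of them higher, where 14.6% of all 16852 tested genes passed (7.08% lower and 7.55% higher). The members' share, 11.1%, is close to that background. Their median log2 change was -0.24, against 0.02 over all genes tested, and 8 of 9 changes were negative. The share of negative changes over all genes was not counted. Those of Boc and Gas1 were near 0 (-0.02 and -0.05), and the signs of Boc, Gas1 and Gli3 depended on which library was left out. Values of the genotypes did not overlap for 3 members (Gli2, Hhip and Smo), each lower in FGF13cko, against 39.4% of all tested genes in either direction and 18.7% lower. In bulk samples, fewer cells of a type and less RNA per cell cannot be told apart.

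**Figure D1:**
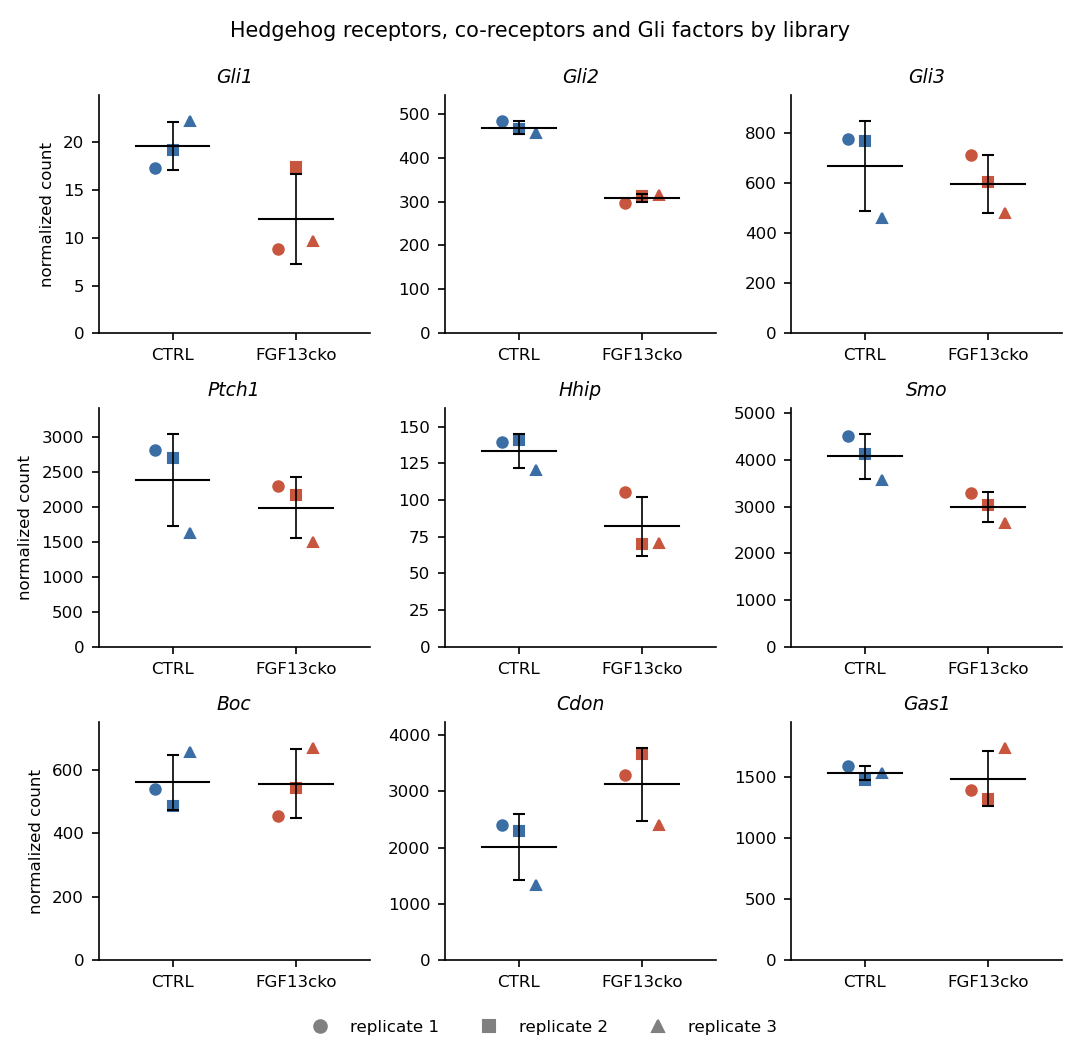
Normalized counts of the 9 genes in each library, with replicates 1, 2 and 3 as circles, squares and triangles; horizontal lines are means and bars are SD (n = 3). The CTRL and FGF13cko points separate for Gli2, Hhip and Smo, and replicate 3 is lowest in both groups for Gli3, Ptch1, Smo and Cdon.

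Among the Gli transcription factors, Gli2 (ENSMUSG00000048402, chromosome 1, 118834132 to 119053619, minus strand, GRCm38), the main activator of the response, was read at 484, 464 and 456 normalized counts in CTRL 1, 2 and 3. In FGF13cko 1, 2 and 3 it was at 297, 313 and 315. The groups were tight and far apart: no FGF13cko library came near the lowest CTRL library. The CTRL mean was 468 ± 14.5 and the FGF13cko mean 308 ± 9.77 (SD, n = 3 each), with a log2 change of -0.60 (SE 0.14, 95% interval -0.92 to -0.28, limma adjusted p = 0.0279), or 1.52-fold lower. The authors' deposited table gives -0.58 with a standard error of 0.17 and an adjusted p of 0.00671. Gli2 also passed without CTRL 3 (limma adjusted p = 0.0142) and without replicate 3 of both groups (0.00381). With CTRL 1, CTRL 2, FGF13cko 1, FGF13cko 2 or FGF13cko 3 left out it did not: the limma adjusted p was 0.112, 0.0807, 0.0872, 0.118 and 0.0727, while the log2 change kept to -0.62 to -0.57.

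Gli3 (chromosome 13, 15463235 to 15730026), the main repressor of the family, was at 779, 772 and 463 in CTRL and at 712, 606 and 480.3 in FGF13cko. Both replicate 3 libraries were low, and the groups overlapped throughout. The log2 change of Gli3 was -0.14 (SE 0.25, 95% interval -0.71 to 0.42, limma adjusted p = 0.726), an interval that leaves room for a change as large as that of Gli2. Gli3 exons share 188 bases with Gm6556 on the opposite strand, which had a mean of 15.3. Strand is not marked by this library kit, so reads of such pairs cannot be told apart.

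Gli1 (chromosome 10, 127329882 to 127341974), the target gene that amplifies the response, was barely read, with 9 to 22 reads per library. Its normalized counts were 17.3, 19.1 and 22.2 in CTRL and 8.85, 17.4 and 9.66 in FGF13cko. FGF13cko 2 lay just above the lowest CTRL library, so the groups overlapped. The means were 19.6 ± 2.51 and 12.0 ± 4.70 (SD, n = 3 each). The log2 change of Gli1, -0.72 (SE 0.39), had a 95% interval of -1.60 to 0.17 and did not pass (limma adjusted p = 0.24), on 58 reads in CTRL and 37 in FGF13cko. Gli1 shares 62 exon bases with Arhgap9 on the opposite strand, whose mean was 4.93.

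Per kilobase of exon, Gli1 made up 2.23% to 3.74% of the summed Gli signal in CTRL and 1.49% to 3.10% in FGF13cko. Gli3 made up 40.5% to 53.0% and 51.2% to 62.3%, and Gli2 44.5% to 55.7% and 36.3% to 46.9%. The shares of Gli2 and Gli3 overlapped between the genotypes, although in each same-numbered pair FGF13cko had the lower Gli2 share and the higher Gli3 share. As a log2 ratio within each library, Gli1 to Gli3 averaged -5.00 ± 0.59 in CTRL and -5.57 ± 0.57 in FGF13cko (SD, n = 3 each; exact permutation p = 0.4). Gli1 to Gli2 averaged -4.52 ± 0.22 and -4.63 ± 0.47 (exact permutation p = 0.8). These were among 4 ratios compared, with adjusted values of 0.667 to 0.8, in a 2-sided test that cannot go below 0.1 with 3 against 3.

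Of the receptor proteins, Smo (ENSMUSG00000001761, chromosome 6, 29735503 to 29761365), the signal transducer, was at 4519, 4136 and 3572 normalized counts in CTRL and at 3299.9, 3038 and 2653 in FGF13cko. Every FGF13cko library was below every CTRL library, and replicate 3 was lowest in both groups. The means were 4076 ± 477 and 2997 ± 325 (SD, n = 3 each). The log2 change of Smo was -0.44 (SE 0.15, 95% interval -0.80 to -0.09), and it did not pass (limma adjusted p = 0.0933). The differences within same-numbered libraries were close to each other, at -0.45, -0.44 and -0.43. With the replicate number as a block Smo passed (limma adjusted p = 0.0207), as it did without both replicate 3 libraries (log2 change -0.45, limma adjusted p = 0.00361) and by DESeq2 (adjusted p = 0.0206).

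Hhip (ENSMUSG00000064325, chromosome 8, 79965851 to 80058006), a membrane protein that binds Hedgehog ligands and keeps them from Ptch1, was at 139, 141 and 120.3 in CTRL and at 105, 70.4 and 70.5 in FGF13cko. Its groups did not overlap, and FGF13cko 1 was the nearest to CTRL. The means were 134 ± 11.4 and 82.1 ± 20.1 (SD, n = 3 each), with a log2 change of -0.72 (SE 0.23, 95% interval -1.26 to -0.18) that did not pass (limma adjusted p = 0.0767). Hhip passed with the replicate block (limma adjusted p = 0.0402) and without both replicate 3 libraries (-0.70, limma adjusted p = 0.0393). It also passed by DESeq2 run here on recovered reads (adjusted p = 0.0322), but not in the authors' deposited table (log2 change -0.65, adjusted p = 0.0701).

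Ptch1 (ENSMUSG00000021466, chromosome 13, 63508328 to 63573598), the ligand receptor and a target of the pathway, was at 2814, 2702 and 1623 in CTRL and at 2299.6, 2167 and 1495 in FGF13cko. Replicate 3 was far below the others in both groups, by 0.76 in CTRL and 0.58 in FGF13cko on the log2 scale, so the groups overlapped. The log2 change of Ptch1 was -0.24 (SE 0.26, 95% interval -0.83 to 0.35, limma adjusted p = 0.55). Within same-numbered libraries FGF13cko was lower each time, by -0.29, -0.32 and -0.12. Without both replicate 3 libraries the log2 change of -0.30 passed (limma adjusted p = 0.019), but with the replicate block it did not (limma adjusted p = 0.154). The log2 ratio of Ptch1 to Smo was -0.81 ± 0.28 in CTRL and -0.61 ± 0.19 in FGF13cko (SD, n = 3 each; exact permutation p = 0.5), and it was higher in FGF13cko in all 3 same-numbered pairs, by 0.16, 0.13 and 0.31.

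Of the co-receptors, Cdon (ENSMUSG00000038119, chromosome 9, 35421128 to 35507652), an immunoglobulin-family membrane protein, was the only member with a positive change. It was at 2404, 2291 and 1336 normalized counts in CTRL and at 3293, 3665 and 2394 in FGF13cko. FGF13cko 3 lay just below CTRL 1, so the groups touched, although each FGF13cko library was above the CTRL library of the same number. The means were 2010.3 ± 587 and 3117 ± 654 (SD, n = 3 each), and the log2 change of 0.66 (SE 0.26, 95% interval 0.06 to 1.26) did not pass (limma adjusted p = 0.128). With the replicate block Cdon passed (limma adjusted p = 0.00558), and without both replicate 3 libraries it was 0.57 (limma adjusted p = 0.00115). Without CTRL 3 alone the change was smaller, at 0.39 (limma adjusted p = 0.139).

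Boc (chromosome 16, 44485049 to 44558897), the close relative of Cdon, was at 541, 485 and 656 in CTRL and at 454, 544 and 671 in FGF13cko. It was highest in replicate 3 of both groups, which is the reverse of Cdon, and the groups overlapped fully. The log2 change of Boc was -0.02 (SE 0.19, 95% interval -0.47 to 0.43, limma adjusted p = 0.96). The log2 ratio of Boc to Cdon was -1.80 ± 0.68 in CTRL and -2.48 ± 0.56 in FGF13cko (SD, n = 3 each; exact permutation p = 0.3, adjusted 0.667). That test takes no account of the replicate number. Within same-numbered libraries the ratio was lower in FGF13cko each time, at -0.71, -0.51 and -0.81. The labels do not say that the numbers pair libraries.

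Gas1 (chromosome 13, 60174405 to 60177365), a co-receptor anchored in the membrane by a lipid, was at 1583, 1471 and 1525 in CTRL and at 1391, 1317 and 1737 in FGF13cko. FGF13cko 3 was the highest of all libraries and FGF13cko 2 the lowest. The log2 change of Gas1 was -0.05 (SE 0.15, 95% interval -0.40 to 0.29, limma adjusted p = 0.836). Its interval was the narrowest apart from that of Gli2. Gas1 shares 589 exon bases with Gm48488 on the opposite strand, which had a mean of 7.996.

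**Figure D2:**
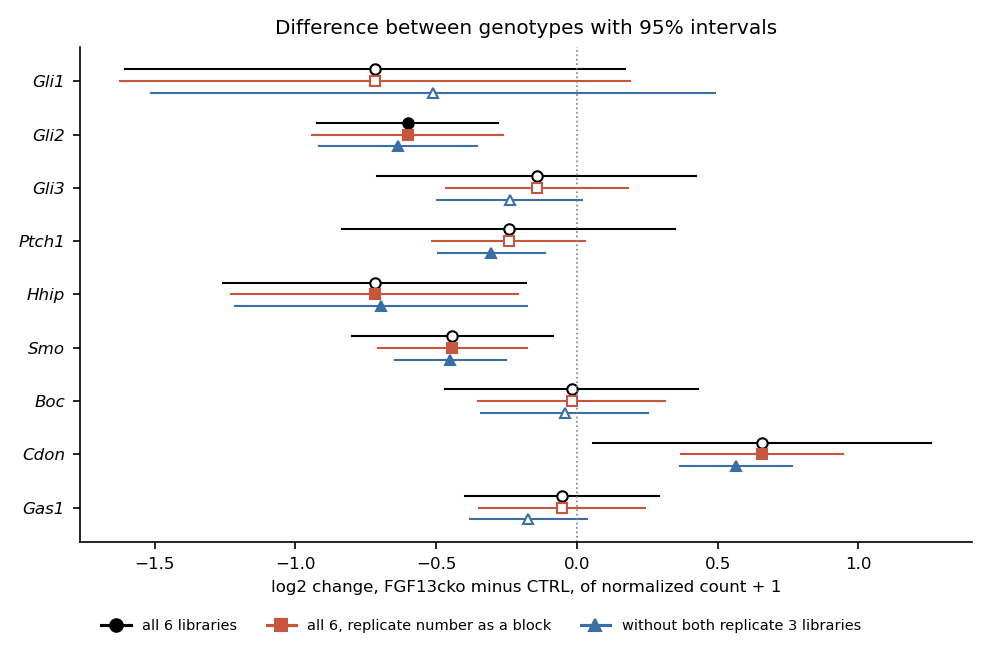
Log2 change (FGF13cko minus CTRL) of normalized count + 1 with 95% intervals, from all 6 libraries (circles), with the replicate number as a block (squares) and without both replicate 3 libraries (triangles); filled symbols have a limma adjusted p under 0.05. Gli2 is filled in all 3 fits, Hhip, Smo and Cdon in the latter pair, and Ptch1 in the last.

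How many members passed varied with the fit, as did the background. With the replicate block 4 members passed (Gli2, Smo and Hhip lower, Cdon higher), where 30.0% of all tested genes did (13.9% lower and 16.2% higher). Without both replicate 3 libraries 5 passed, Ptch1 being added to the lower ones, against a background of 37.3% (18.4% lower and 18.9% higher). DESeq2 run on recovered reads called 3 members, all lower, with 23.6% of genes called (11.7% lower and 11.9% higher). In the authors' deposited table Gli2 passed but Smo and Hhip did not, with 16.7% of genes past the same threshold. The edgeR fit called Gli2 alone (adjusted p = 0.0245), with 14.9% called (7.86% lower and 7.06% higher). In same-numbered libraries, 5 members were lower in FGF13cko all 3 times (Gli1, Gli2, Ptch1, Hhip and Smo), Cdon was higher all 3 times, and Gli3, Boc and Gas1 were mixed. Of all tested genes, 29.8% were lower and 32.4% higher in all 3 pairs. Of the neural progenitor markers 3 of 9 fell in the main fit, as Gli2 did, where 7.08% of all tested genes fell. Sox2, Pax6 and Hes5 changed by -0.79, -0.98 and -2.49 on the log2 scale (limma adjusted p = 0.0152, 0.0135 and 0.00794). The list's other 6 markers did not pass, and the summed level of all 9 was higher in FGF13cko (188553 to 198953) than in CTRL (135964 to 149798). A sum gives most weight to genes with high counts, and the median log2 change of the 9 was -0.25. Nes, Fabp7 and Vim had positive changes (1.29, 0.56 and 0.81). Those of Hes1, Slc1a3 and Msi1 were negative (-0.78, -0.24 and -0.25). The young neuron markers summed to 18211 to 23689 in CTRL and 28437 to 38673 in FGF13cko, with 4 of 7 higher, against 7.55% of all tested genes. Whether these shifts bear on the Gli2, Smo, Hhip or Cdon values was not tested.

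Levels can be compared between genes only per length, and on that scale the target gene Gli1 was the lowest member. The other targets, Ptch1 and Hhip, ranked 4 and 8 in CTRL. The lowest members, Hhip and Gli1, were thus both targets. Ptch1, which is also the receptor, had a mean above those of Boc, Gli3 and Gli2. Lengths count all annotated exons of a gene, whether or not they are used in these cells. In CTRL, Smo had 725 ± 84.8 normalized counts per kilobase of exon, Gas1 515 ± 18.8, Cdon 261 ± 76.0 and Ptch1 168 ± 46.3 (SD, n = 3 each). Boc followed at 126 ± 19.6, Gli3 at 70.0 ± 18.8, Gli2 at 68.1 ± 2.11, Hhip at 14.7 ± 1.26 and Gli1 at 3.91 ± 0.50. Between neighbours in this order, the libraries' ranges overlapped for Cdon and Ptch1, for Ptch1 and Boc, and for Gli3 and Gli2, whose means differed by a ratio of 1.03. In FGF13cko the order of the means was the same. There Smo (533 ± 57.9) and Gas1 (500.3 ± 75.7) overlapped, as did Gas1 and Cdon (404 ± 84.7), and Ptch1 (140.1 ± 30.4) and Boc (125 ± 24.4), while Gli3 (62.5 ± 12.1) stood above Gli2 (44.9 ± 1.42) in every library.

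**Figure D3:**
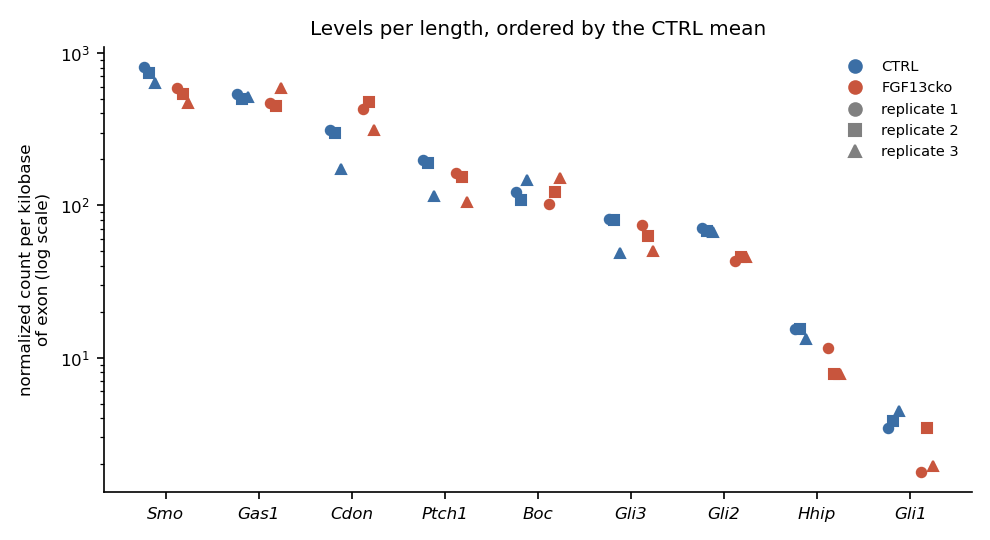
Normalized counts per kilobase of annotated exon on a log axis for each library, CTRL in blue and FGF13cko in red, with genes ordered by the CTRL mean. The levels run from 725 for Smo to 3.91 for Gli1 in CTRL, and the order of the means is the same in both genotypes.

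The members differed in how they varied between replicates. How many of all genes share these patterns was not counted. Gli3, Ptch1, Smo and Cdon were lowest in replicate 3 of both groups, and Boc was highest there. CTRL 3 was below the mean of CTRL 1 and 2 by -0.74 for Gli3, -0.76 for Ptch1 and -0.81 for Cdon on the log2 scale, and FGF13cko 3 by -0.45, -0.58 and -0.54. Smo and Hhip differed less and by alike amounts, at -0.28 and -0.22 in CTRL 3 and at -0.26 and -0.28 in FGF13cko 3. Gli2 differed by only -0.06 and 0.05.

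To place the members among other genes, profiles were compared by the root mean square difference, over the 6 libraries, of log2 values from which the CTRL mean was taken off, among 12247 genes with a mean of at least 50. The nearest to Gli2 were Usp11 (0.04) and Cnppd1 (0.05), to Smo Stn1 (0.02) and Zfp511 (0.03), and to Cdon Tmc6 (0.05) and Snx19 (0.07). Ptch1 was nearest to Trib2 (0.03) and Plod3 (0.04), and Hhip to Rpl28-ps1 and Hmgb2 (both 0.07). Many genes share such profiles: 702 lay within 0.2 of Gli2, 1227 of Smo, 801 of Ptch1, 338 of Cdon and 206 of Hhip. Only 5 lay that near Gli1, led by Zfp438 (0.17) and Rtbdn (0.19). Gli1, with 9 to 22 reads per library, is far below the mean of 50 asked of the candidates, so this count cannot be set beside the others.

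Beyond the members, 65 further genes of the pathway were listed by role and 63 had enough reads to be tested. Of these, 4 rose and 4 fell, which is 12.7% against 14.6% of all tested genes, and their median log2 change was 0.02, as over all genes tested. These counts moved with the fit: 13 rose and 10 fell with the replicate block, where 30.0% of all genes passed, and 14 rose and 13 fell of 62 without replicate 3 of both groups, where 37.3% did. Of the Zic factors, which partner with Gli proteins, 0 of 4 tested here passed in any of these 3 fits. The 8 genes that passed with all libraries also passed in both other fits.

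**Figure D4:**
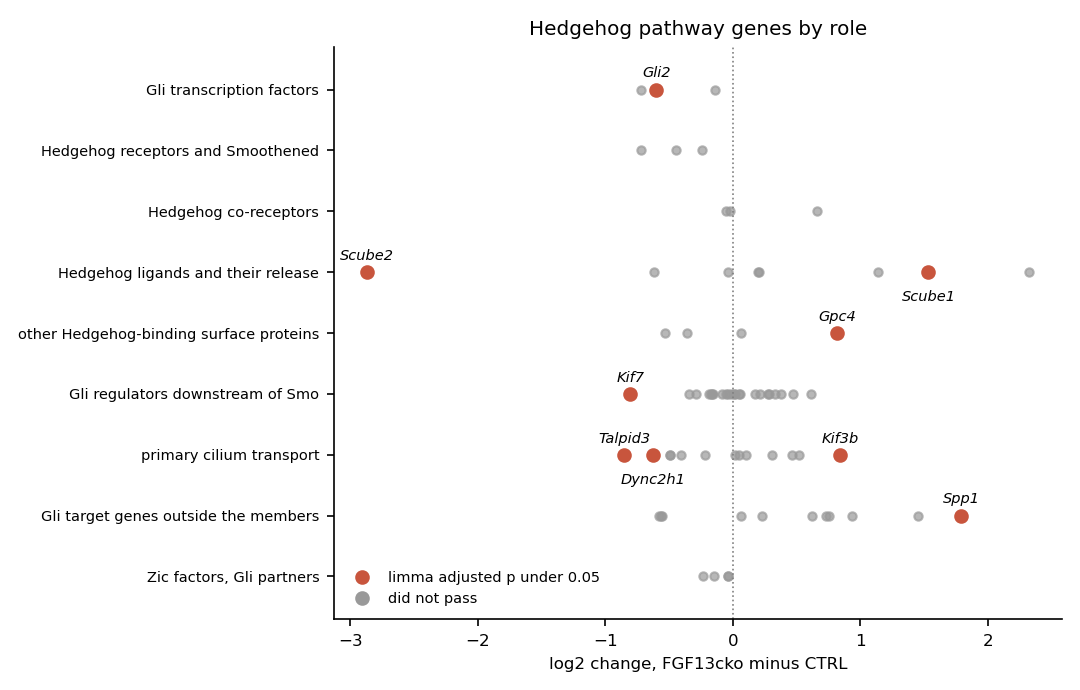
Log2 change (FGF13cko minus CTRL) of each tested pathway gene, in rows by role; red points with names have a limma adjusted p under 0.05 and grey points did not pass. Scube2 (-2.87) lies far to the left and Spp1 (1.79) is the red point farthest to the right.

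Ligand RNA was low except for Dhh. Dhh averaged 129 normalized counts per kilobase in CTRL and 125 in FGF13cko, against 3.43 and 3.30 for Ihh and 1.30 and 6.04 for Shh. Dhh was at 737, 785 and 183 in CTRL and 627, 587 and 436 in FGF13cko, overlapping between the groups (log2 change 0.20, limma adjusted p = 0.823). Without replicate 3 of both groups the direction turned and Dhh passed as lower (-0.33, limma adjusted p = 0.0388). Dhh shares 546 exon bases with Rhebl1 (mean 191). Shh was at 0, 6.04 and 5.06 in CTRL and 21.6, 10.6 and 19.3 in FGF13cko. The groups did not overlap, but only 11 and 53 reads stood behind them, and Shh did not pass (limma adjusted p = 0.0855; 0.0345 with the replicate block).

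Of the genes for ligand release, Scube2, a secreted protein that helps Sonic hedgehog leave the producing cell, fell from 299, 314 and 95.1 to 16.7, 36.7 and 33.8 normalized counts. CTRL 3 was low among the controls yet above every FGF13cko library. The log2 change was -2.87 (SE 0.51, limma adjusted p = 0.0117). It missed the threshold without CTRL 1 (limma adjusted p = 0.0518). Its relative Scube1 rose from 51.9, 58.4 and 61.7 to 141, 177 and 189, without overlap (log2 change 1.53, SE 0.21, limma adjusted p = 0.00554), and passed in all 6 fits that left out a library. Scube3 went from 85.6 ± 29.3 to 192 ± 68.0 (SD, n = 3 each) and did not pass (limma adjusted p = 0.0588; 0.00494 with the replicate block). The transporter Disp1 and the acyltransferase Hhat did not pass either (limma adjusted p = 0.429 and 0.232).

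Of 4 other surface proteins that bind Hedgehog ligands, 1 rose and none fell by limma, and with the replicate block the glypican Gpc6 also passed, as lower (log2 change -0.53, limma adjusted p = 0.0147). The riser was Gpc4, likewise a glypican and thus a membrane proteoglycan, at 1121, 1037 and 834 normalized counts in CTRL and 1842, 1804 and 1611 in FGF13cko. Every FGF13cko library was above every CTRL library. The means were 997 ± 147 and 1752 ± 124 (SD, n = 3 each; log2 change 0.82, SE 0.16, limma adjusted p = 0.0145). Gpc4 missed the threshold without FGF13cko 1 or 2 (limma adjusted p = 0.0526 and 0.0804).

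Of 23 regulators that act between Smo and the Gli proteins, only Kif7 passed with all libraries. With the replicate block Prkar1a, a regulatory subunit of protein kinase A, and the ubiquitin ligase Mgrn1 passed as well, both higher (log2 change 0.61 and 0.47, limma adjusted p = 0.0198 and 0.0301). Kif7, a kinesin at the tip of the cilium that controls Gli processing, fell from 1004, 891 and 819 to 609, 556 and 405 (log2 change -0.80, SE 0.19, limma adjusted p = 0.0282). Its 3 FGF13cko values were all below the lowest control, and 51 of its exon bases are shared with Ticrr (mean 579) and 877 with 9330171B17Rik (mean 5.47), both on the opposite strand. The Gli inhibitor Sufu was at 1404 ± 265 and 1221 ± 134 (SD, n = 3 each; limma adjusted p = 0.507), and the ciliary receptor Gpr161 at 1014 ± 199 and 963 ± 32.2 (limma adjusted p = 0.856). Neither passed with the block either (0.275 and 0.803).

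In the primary cilium list, 2 of 13 genes fell and 1 rose, which is 23.1% against 14.6% of all tested genes. With the replicate block 5 fell and 2 rose, where 30.0% of all tested genes passed. Dync2h1, the motor heavy chain that carries cargo back from the ciliary tip, went from 1781, 1688 and 1495 to 1252, 1132 and 866 (log2 change -0.62, limma adjusted p = 0.0477). The centrosomal gene Talpid3, listed under the older name 2700049A03Rik, fell from 699.8 ± 129 to 385 ± 55.1 (SD, n = 3 each; log2 change -0.85, limma adjusted p = 0.0255). Kif3b, a motor subunit that carries cargo outward, rose from 1634 ± 399 to 2865 ± 70.5 (log2 change 0.84, limma adjusted p = 0.0286). Kif7, Talpid3 and Kif3b each passed in only 2 of the 6 fits that left out a library, and Dync2h1 in 1.

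Known targets of Gli proteins outside the members were not uniformly lower. Of 11 tested, 1 rose and none fell by limma, which is 9.09% against 14.6% of all tested genes. The median log2 change was 0.62, that of Bcl2, which was low in CTRL 3 (233, against 513 and 514 in CTRL 1 and 2). Without replicate 3 of both groups Bcl2 changed by 0.38, and 5 targets rose and 2 fell, where 37.3% of all genes passed. With the replicate block 5 rose and 2 fell, where 30.0% of all genes passed. Those that fell with the block were Mycn (-0.56, limma adjusted p = 0.0186) and Foxm1 (-0.56, 0.0106), both transcription factors of dividing cells. The riser was Spp1, which encodes the secreted phosphoprotein osteopontin and went from 180 ± 69.9 to 598 ± 138 (SD, n = 3 each; log2 change 1.79, limma adjusted p = 0.0134). Cyclin D1 (Ccnd1) was at 19281, 23324 and 3183 in CTRL and 36866, 35404 and 22530.1 in FGF13cko, with CTRL 3 far below the rest, and did not pass (limma adjusted p = 0.186; 0.0143 with the replicate block); it shares 1100 exon bases with LTO1 (mean 414) on the opposite strand. Spp1 missed the threshold without FGF13cko 2 or 3 (limma adjusted p = 0.0539 and 0.0547).

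**Figure D5:**
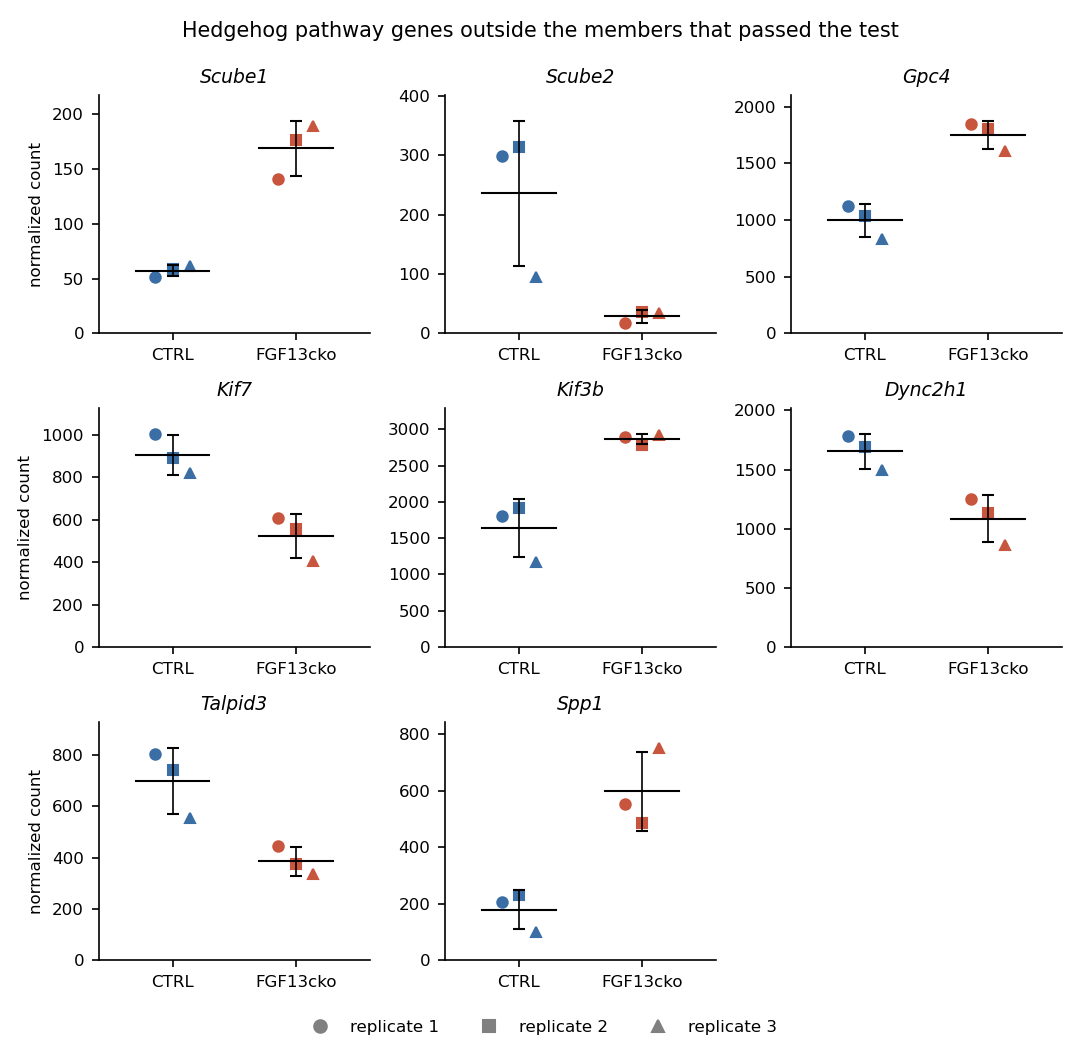
Normalized counts in each library for the 8 pathway genes outside the members that passed the test, drawn as in the plot of the members by library. In each panel the CTRL and FGF13cko points are separate, and Scube2 is low in CTRL 3 (95.1 against 299 and 314).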

How the data were processed

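Total RNA of the 6 neurosphere cultures was sequenced on an Illumina Xten after NEBNext Ultra library preparation, per the labels' protocols. The submitters' processing notes list STAR, DESeq2 and mm10; the sources used here do not give the counting tool, annotation or versions. The authors deposited 1 normalized signal per gene and library: gene counts divided by a size factor, since each library held whole multiples of 1 step (100% of values within 0.01 of a read). In CTRL 2 and CTRL 3 the step, 1.01 in both, lies so near 1 that the recovery of whole reads could not be checked as it was in the other 4 libraries; the count tests use reads recovered in this way from all 6. A count of 0 allows up to 3 reads. The table also holds the authors' deposited log2 fold change, its standard error and a Wald statistic (a score not used in any result), beside each p-value before and after adjustment; it has 0 per-library columns without a sample.

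Genotype was tested with limma 3.58.1 in R 4.3.3, which modelled log2(normalized count + 1) by genotype alone with variances shrunk to a trend. Genes needed a mean of at least 10, with 2-sided p-values adjusted by Benjamini-Hochberg over all genes tested and a threshold of 0.05. Fold changes on this scale understate those of low genes. The alternatives on recovered reads were edgeR 4.0.16 (quasi-likelihood) and DESeq2 1.42.0. Both, and the limma fit by genotype alone, were tested on simulated data. The other fits, among them the replicate block and those leaving out libraries, were not. Log ratios used an exact permutation test over samples. Exon lengths, coordinates (1-based) and overlaps came from GENCODE M21 (GRCm38, the assembly of mm10), which held 54409 of the gene IDs, and promoters from RefSeq (GRCm38.p6). Figures used Python 3.11.15 and matplotlib 3.10.9.

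The members and lists were chosen with earlier results of these data known, and 2 genes of the lists are not reported here. Named genes were the members, Fgf13, progenitor markers, up to 3 genes past the threshold per pathway list, and the 2 most similar profiles per member, predicted gene models left out; those of Gli3, Boc and Gas1 are not printed. Dhh, Ihh, Shh, Scube3, Disp1, Hhat, Sufu, Gpr161, Ccnd1, Gpc6, Prkar1a, Mgrn1, Mycn and Foxm1 were named after their values were seen. So were Bcl2 and the astrocyte markers. Same-numbered libraries had residuals that correlated at 0.36, 0.20 and 0.54. The main fit did not treat them as pairs, and the replicate block was an alternative. Replicates 1 and 2 were not told apart by number, since CTRL 2 with FGF13cko 1 gave 0.33 and CTRL 1 with FGF13cko 2 gave 0.26. Both of these values are above the 0.20 of the same-numbered replicate 2 libraries, so the correlations do not single out the same-numbered pairs of replicates 1 and 2. What a number marks is not stated in the labels. Values blocked on the number are given for the members and named genes where the block changes a call, and as counts for the lists. No label says that each library came from a separate mouse, so p-values measure the spread between these libraries.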

Additional observations from a re-analysis of the deposited data

How the results depend on the processing

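Over 16 alternatives, 1 member was past the threshold in 7 of them and in the main analysis; the replicate block gave 4, DESeq2 gave 3, leaving out replicate 3 of both groups gave 5, and leaving out single libraries gave 0 to 3. Over all genes these counts were 5064, 3971, 6145 and 469 to 4373, against 2465, and over the other pathway genes 23, 13, 27 and 2 to 19, against 8. Fgf13 passed by DESeq2 (log2 change -0.87), without replicate 3 of both groups (-1.35) and in 1 of the single left-out fits (-1.15 to -0.53). In the authors' deposited table Fgf13 did not pass (log2 change -0.78, adjusted p = 0.0588). The log2 changes of Gli1, Gli2, Ptch1, Hhip, Smo and Cdon kept their sign in every alternative that gave a value (Gli1 had none at a mean of at least 50). Those near 0 did not: over single left-out libraries Boc was -0.16 to 0.12 (0.10 without CTRL replicate 3), Gas1 -0.17 to 0.027 and Gli3 -0.39 to 0.0082, with the highest values without FGF13cko replicate 1, 2 and 3. The log2 ratio of Gli1 to Gli2 changed by -0.12 in the main analysis, by 0.12 without replicate 3 of both groups, by 0.032 with a pseudocount of 5, and by -0.39 to 0.027 over single left-out libraries. The cause was not tested. TMM and upper quartile scaling moved no member across the threshold. Gli1 and Shh rest on few reads.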
